A study of Mus musculus with 10 samples.

Results

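DNA methylation at CpG islands of the left hemibrain was compared between male C57BL/6j mice fed a diet enriched in n-3 fatty acids and mice fed a standard diet. The comparison rests on 7 of the 10 arrays of the study, 4 of the enriched diet (ERD) and 3 of the standard diet (STD). Its features are clusters of at least 3 neighbouring array probes whose starts lay at most 500 bp apart. A probe was used where its spot stood well above background in both channels on all 7 arrays, which held for 55941 of 88737 non-control probes (63.0%). Of 13835 clusters on the array, 9783 kept at least 3 such probes and were tested. They held 47686 kept probes, with a median of 4 per cluster and a median length of 756 bp. All positions are on the mouse build mm9.

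The mice of every group entered their diet at an age of 3 weeks and stayed on it for 24 weeks. Polyunsaturated fatty acids of the n-3 and n-6 kinds stood at 7:1 in ERD and at 1:6 in STD. The remaining 3 arrays came from a balanced diet (BLD) with a ratio of 1:1, which stayed outside the fit and served to rank clusters and to be shown beside them. STD is the control diet of this comparison, although the title of every sample, whatever its diet, ends in the word CONTROL. The titles do not say whether each array is a separate animal, and p-values therefore speak of the spread between samples, which may be technical. Whole hemibrain DNA was used, with 5 ug as starting material, and a change in the share of a cell type cannot be told apart from a change within cells.

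In methylated DNA immunoprecipitation, an antibody against 5-methylcytosine pulls down DNA fragments that carry the mark, and the array compares them with the untreated input DNA of the same sample. Here Cy5 labelled the pulled-down DNA and Cy3 labelled the input on every array, with no dye swap. CpG islands are stretches rich in CpG dinucleotides that often lie at promoters, where most of them carry little methylation. The n-3 and n-6 fatty acids are essential components of neuronal membranes, and n-3 docosahexaenoic acid is abundant in the brain. The value of a cluster is the mean log2 ratio of Cy5 over Cy3 of its kept probes, centred on the median of each array. A value of 0 is thus the typical probe, and a lower value means less pull-down signal relative to input than that. Such a value can come from a lower Cy5 or a higher Cy3, and is not by itself a lower methylation. No gene name comes with the probes used here, so clusters are given by position and no gene is named.

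No cluster passed an adjusted p of 0.05, and among clusters with a low unadjusted p, lower values in ERD outnumbered higher ones. In limma, 0 of 9783 clusters passed after Benjamini-Hochberg adjustment, and the lowest adjusted p was 0.108. At an unadjusted p under 0.05 stood 1649 clusters (16.9%), of which 529 (5.41%) were higher and 1120 (11.4%) were lower in ERD. The arrays of the 2 diets did not overlap in 1641 clusters (16.8%), with ERD above STD in 516 (5.27%) and below it in 1125 (11.5%). An adjusted p under 0.2 was reached by 570 clusters, 153 higher and 417 lower. The median of all differences was -0.03, with 44.2% of clusters higher in ERD. The split by direction moved with the normalization. With loess within each array it was 776 higher against 922 lower, and with normexp background correction it was 430 higher against 0 lower. Leaving out STD replicate 3 lowered the share at an unadjusted p under 0.05 from 16.9% to 8.34%, with 230 clusters higher and 586 lower. With array weights in limma 35 clusters passed, 7 higher and 28 lower, and STD replicates 3 and 2 had the highest weights, 1.97 and 1.57, against 0.62 to 1.29 for the other 5 arrays.

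Single probes gave the same count of passing features. Of 37104 kept probes with a usable spot on all 7 arrays, 0 passed an adjusted p of 0.05 in limma, and the lowest adjusted p was 0.124. At an unadjusted p under 0.05 there were 6084 probes (16.4%), 1934 higher (5.21%) and 4150 lower (11.2%).

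The median sizes of the differences between diets and between slides of the same diet were similar, but they are not directly comparable. ERD and STD share no slide. Replicates 1 and 2 of ERD lay on one slide and replicates 3 and 4 on another, while STD replicate 1 shared a slide with a BLD array and STD replicates 2 and 3 shared another. The median absolute difference of clusters was 0.133 between ERD and STD, 0.136 between the slides of ERD and 0.143 between the slides of STD. These sizes rest on unequal numbers of arrays, 4 against 3 between diets and fewer between slides, and were not tested against each other. Differences between means of fewer arrays are larger by noise alone, so similar sizes do not mean that diet and slide differences are equal. No fixed term can separate diet from slide. A limma fit with slides as random blocks, at an estimated correlation of 0.0632 within slides, passed 0 clusters, and its share at an unadjusted p under 0.05 was 15.4%.

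The 12 named clusters with lower values in ERD are those of lowest p among clusters whose direction held without any 1 array. They lay on 8 chromosomes, spanned 340 to 1439 bp and differed by -0.99 to -0.51, with limma adjusted p from 0.108 to 0.129. None of the ERD arrays overlapped with an STD array in any of the 12, a property their selection by p favours. Their ERD means ran from -1.30 to -0.47 and their STD means from -0.32 to 0.11. In each cluster the STD mean was nearer to the array median than the ERD mean, although several STD means were themselves below it. The mean of the 3 BLD arrays lay between both diets in all 12, which selection for a gap between ERD and STD also favours. The share over all clusters is not given here. At chr8:75876434-75877872 the BLD mean was -0.470, close to the ERD mean of -0.475. In 7 of the 12 the cluster was among the 10% lowest in BLD. Of their 56 kept probes, 54 had the direction of the cluster. The cluster value is the mean of these probes, and selection by p favours such agreement.

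The lowest p belonged to chr8:119467527-119468010, a cluster of 4 probes with 3 kept. Its log2 ratio was -1.04, -1.14, -1.50 and -1.14 on the 4 ERD arrays and -0.37, -0.36 and -0.22 on the 3 STD arrays. Every ERD array lay well below the lowest STD array, and the diets differed by -0.89 ± 0.12 (SE; limma adjusted p = 0.108). The signal of the pull-down channel itself was lower, with centred Cy5 values of -0.93, -1.09, -0.42 and -0.18 in ERD and -0.08, 0.10 and 0.44 in STD. The input channel overlapped, with Cy3 values of -0.08, 0.01, 0.86 and 0.79 against 0.22, 0.35 and 0.61. Of the 21 kept spots on the 7 arrays, 2 were outlier-flagged and left out.

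The cluster at chr14:122933384-122933868 kept all of its 5 probes. It stood at -0.65, -0.63, -0.88 and -0.85 in ERD and at -0.02, -0.08 and -0.01 in STD, so that limma gave -0.72 ± 0.10 (SE; adjusted p = 0.108) for the difference. BLD spread from -1.19 to -0.20 there, which covers all ERD arrays and no STD array. The Cy5 values were -0.32, -0.50, -0.55 and -0.58 in ERD against 0.07, 0.15 and 0.31 in STD, with no overlap, while Cy3 ran from 0.08 to 0.15 in ERD and from 0.02 to 0.27 in STD. Along the cluster, 4 probes differed by -1.03 to -0.70, and the outermost probe on one side by -0.02. This cluster passed in limma where at least 5 kept probes were required, with 4263 clusters tested (adjusted p = 0.0418), and with array weights (adjusted p = 0.0305).

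The longest run of kept probes among the 12 was that of chr3:106838714-106840111, with 8 of 10. Its log2 ratio was -0.71, -0.47, -0.80 and -0.48 in ERD and -0.04, 0.03 and 0.05 in STD, which limma estimated as -0.63 ± 0.11 (SE; adjusted p = 0.129). All 8 kept probes were lower in ERD, with a difference of -0.13 at one end of the cluster and of -0.98 to -0.43 at the other 7. The 7 kept probes of chr16:96348653-96349871 were less even. The cluster was at -0.79, -0.74, -0.96 and -0.79 in ERD and at -0.32, -0.33 and -0.13 in STD, and its probes differed by -1.42 to 0.25.

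**Figure D1:**
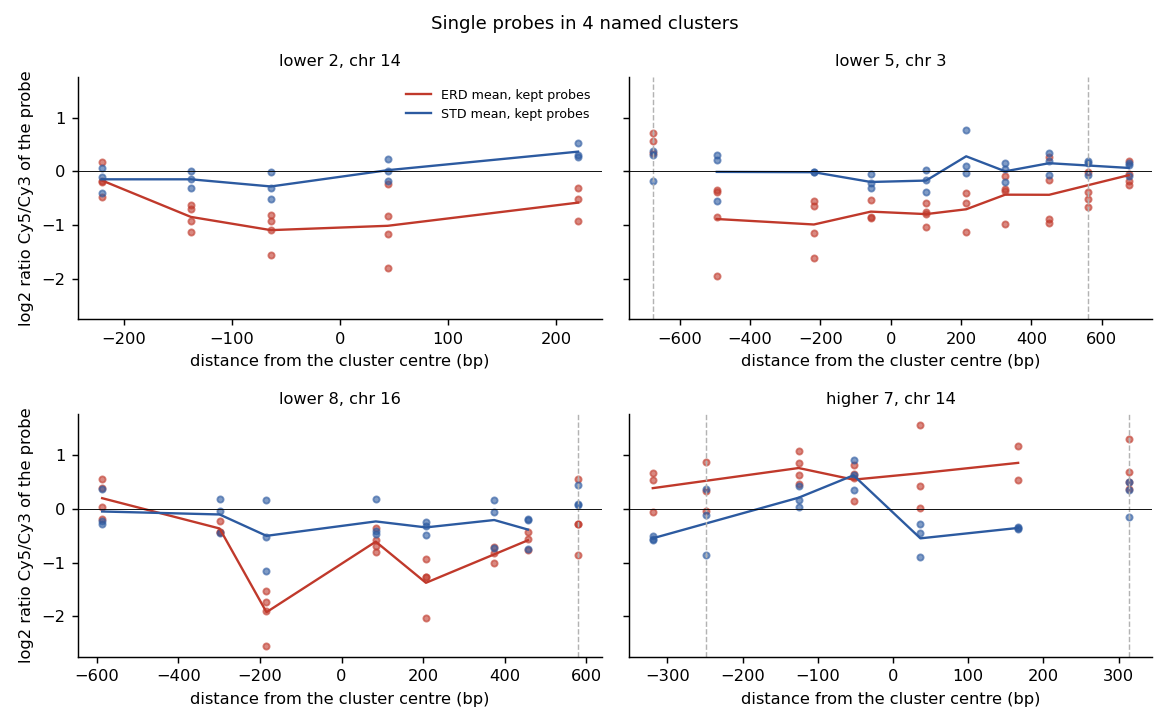
Log2 ratio of single probes (y axis) by distance from the centre of the cluster in bp (x axis) in 4 named clusters, numbered by p within their direction: chr14:122933384-122933868 (lower 2), chr3:106838714-106840111 (lower 5), chr16:96348653-96349871 (lower 8) and chr14:52628744-52629427 (higher 7). Points are single ERD (red) and STD (blue) arrays, lines join the diet means of kept probes and dashed lines mark probes that were not kept; in lower 5 the ERD line lies below the STD line at all 8 kept probes, whereas in lower 8 it lies above at 1 end.

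Other named clusters with lower values had the same order of diets. At chr16:56029231-56030316, ERD had a mean of -0.95 ± 0.27 and STD of -0.18 ± 0.01, the narrowest STD spread of this group with that of chr9:98463666-98464600. At chr17:25409858-25410821, ERD had a mean of -0.75 ± 0.16 (SD, n = 4) against -0.10 ± 0.09 (SD, n = 3). At chr17:35804249-35804944 it was -0.53 ± 0.06 in ERD and -0.01 ± 0.09 in STD. The values at chr9:98463666-98464600 were -0.65 ± 0.20 and 0.01 ± 0.01. There, 4 of 28 kept spots were flagged, so its arrays do not all average the same probes. ERD replicate 1 lacked the kept probes with the highest STD means, 0.35 and 0.22. Of its 4 kept probes, 3 were lower in ERD and 1 differed by 0.06. The 3 kept probes of chr9:119353943-119354282, with none lost, gave -1.02 ± 0.26 and -0.21 ± 0.16. The remaining clusters were chr2:25145715-25146244, with -0.52 ± 0.09 against -0.01 ± 0.02, and chr8:75876434-75877872, with -0.47 ± 0.15 against 0.11 ± 0.05.

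The widest difference among the 12 was seen in the input channel and not in the pull-down channel. At chr1:78193226-78193924 the log2 ratio was -1.32, -1.13, -1.40 and -1.34 in ERD and -0.67, -0.38 and 0.12 in STD (limma difference -0.99 ± 0.17, SE; adjusted p = 0.129). Its Cy5 values were -1.11, -1.19, -1.18 and -0.54 in ERD and -1.21, -1.59 and -0.99 in STD, which overlap. Its Cy3 values ran from -0.11 to 0.64 in ERD and were -0.62, -1.32 and -1.15 in STD. The input signal was thus higher on all ERD arrays, and the pull-down signal was not lower.

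Normexp background correction, which starts from the raw spot intensities, turned 9 of the 12 lower clusters to differences of 0.0029 to 0.27. It also moved the median of all clusters by 0.27, to 0.24. Relative to that median, 7 of the 9 remained below 0, at the lowest by -0.24 at chr14:122933384-122933868. The other 2 lay at 0.01 for chr16:96348653-96349871 and 0.03 for chr8:75876434-75877872. None of the named clusters with higher values in ERD, given below, changed sign with normexp. Relative to the same median, however, chr2:173410946-173412429 lay at -0.071, chr17:23803532-23803905 at -0.085 and chrX:47013995-47014388 at -0.081. The other named higher clusters lay above that median.

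The 12 named clusters with higher values in ERD differed by 0.48 to 1.00, with limma adjusted p from 0.108 to 0.129. They were short of probes, with exactly 3 kept in 9 of the 12, and 4 of the 12 had lost none. The arrays of ERD and STD did not overlap in any of them, and the BLD mean lay between both diets in 11. Selection by p favours both properties. In 9 the cluster was among the 10% highest in BLD, and 3 lay on the X chromosome, which holds 250 of the 9783 clusters.

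At chr18:36020156-36020488, with the lowest p of this direction, the log2 ratio was 0.61, 0.69, 0.61 and 0.75 in ERD and 0.05, -0.21 and -0.15 in STD (limma difference 0.77 ± 0.10, SE; adjusted p = 0.108). The pull-down signal was not higher there: Cy5 was 1.75, 1.46, 0.74 and 1.53 in ERD and 1.69, 1.12 and 2.08 in STD. The input signal was lower on every ERD array, with Cy3 at 0.95, 0.72, -0.09 and 0.61 against 1.57, 1.23 and 2.19.

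The same held at chr14:52628744-52629427, which kept 5 of 7 probes. Its log2 ratio was 0.34, 0.92, 0.48 and 0.77 in ERD and -0.25, -0.02 and -0.11 in STD, and the diets differed by 0.75 ± 0.14 (SE). Cy3 lay between -0.61 and -0.59 on all 4 ERD arrays and at 0.18, 0.30 and 0.81 in STD, whereas Cy5 ran from -0.08 to 0.37 in ERD and from 0.01 to 0.75 in STD. Of its 5 kept probes, 4 were higher in ERD and 1 differed by -0.08. With the median in place of the mean of the probes this cluster alone passed in limma, with a difference of 0.98 (adjusted p = 0.049).

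In a few of the higher clusters the mean pull-down signal was itself higher in ERD. The 3 probes of chr7:52968623-52969012, all kept, gave 0.74, 1.38, 0.86 and 1.03 in ERD and 0.19, 0.10 and -0.26 in STD, the widest difference of the 12 at 1.00 ± 0.16 (SE; limma adjusted p = 0.129). Cy5 was 1.78, 2.22, 2.08 and 1.25 in ERD against 1.20 in STD replicate 1 and -0.09 in STD replicate 3, so the latter was far below the other arrays, and the diets overlapped in this channel through STD replicate 2. At chr15:99256217-99256582, with all 4 probes kept, the log2 ratio was 0.88, 1.04, 0.51 and 0.66 in ERD and 0.18, -0.12 and -0.26 in STD. There Cy5 was higher on all ERD arrays, at 1.51 to 1.79 against 0.86 to 1.34, and Cy3 was lower on all of them, at 0.69 to 0.78 against 0.95 to 1.09. At chr11:96999994-97000343 the log2 ratio was 0.88, 0.82, 0.55 and 0.86 in ERD and 0.13, 0.02 and -0.08 in STD (limma difference 0.75 ± 0.11, SE; adjusted p = 0.125). Its mean Cy5 was 0.78 in ERD and 0.48 in STD, with overlap, at 0.50 to 1.01 against 0.13 to 0.71. Its Cy3 was lower on all ERD arrays, at -0.27 to 0.14 against 0.16 to 0.59.

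The remaining higher clusters included 3 on the X chromosome. The cluster chrX:55283389-55284104 had a mean of 0.11 ± 0.06 over the 4 ERD arrays and -0.53 ± 0.13 (SD) over the 3 STD arrays. There, 4 of 21 kept spots were flagged, and ERD replicates 3 and 4 rest on a single kept probe. The diets differed by 0.18 at that probe, so the gap between the means partly compares different probes. The cluster chrX:47013995-47014388 ran from 0.98 to 1.40 against 0.08 to 0.60. At chrX:98727773-98728485 the values were 0.37 ± 0.13 and -0.18 ± 0.02, while BLD replicate 1 stood at -1.25, below all other arrays. Of the 3 kept probes of this cluster, 1 differed by -0.105. Here too 4 of 21 kept spots were flagged, so its arrays do not all average the same probes. Off the X chromosome, chr17:23803532-23803905 had 1.16 ± 0.34 in ERD and 0.24 ± 0.29 in STD, and chr7:13556336-13556868 had 0.79 ± 0.34 and -0.10 ± 0.25. The values were 0.66 ± 0.08 and 0.13 ± 0.14 at chr2:173410946-173412429, and 0.46 ± 0.09 and -0.01 ± 0.03 at chr5:135408143-135408491.

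**Figure D2:**
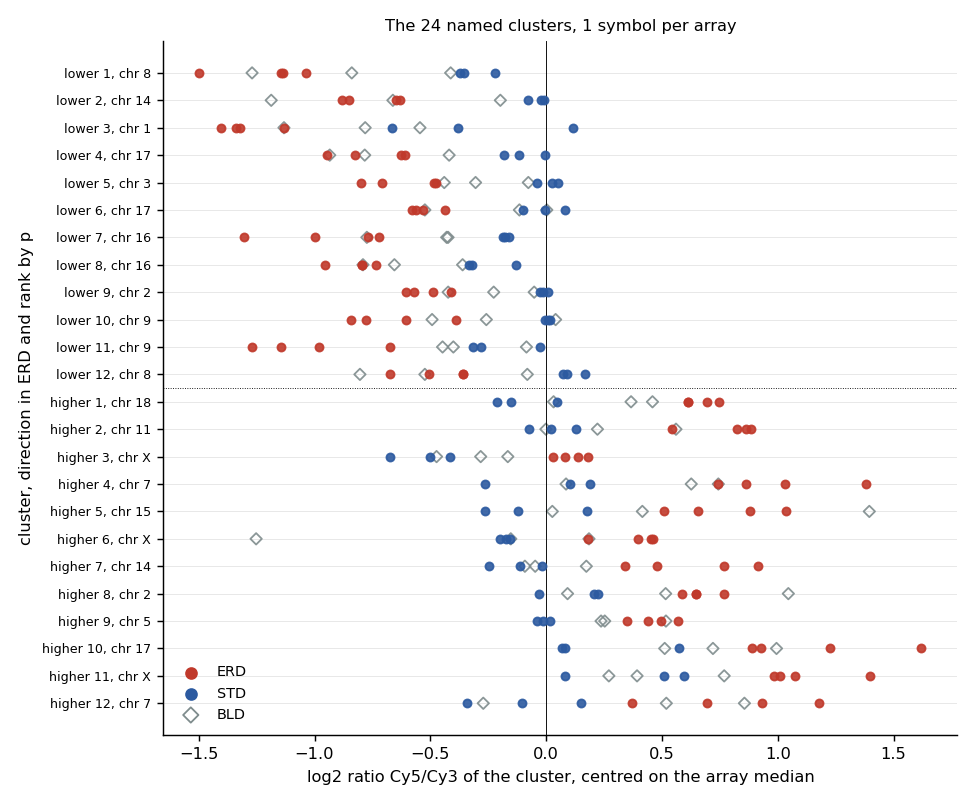
Log2 ratio of Cy5 over Cy3 (x axis) of the 24 named clusters (y axis, by direction and rank by p), with 1 symbol per array for ERD (red points), STD (blue points) and BLD (open diamonds). ERD and STD points do not overlap in any row, and BLD diamonds spread across the gap, with BLD replicate 1 at -1.25 as the far point of the row higher 6. With normexp background correction 9 of the 12 lower clusters change sign. The rows higher 8, higher 10 and higher 11 then fall below the median difference of all clusters.

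Taken apart by channel and relative to all clusters, the higher clusters had a lower input signal in ERD more often than a higher pull-down signal, and the lower clusters had a lower pull-down signal more often than a higher input signal. For this, the log2 signal of each channel was centred on the array median, and the difference between diets was read relative to the median difference of all clusters in that channel, with no test. The 1120 clusters lower at an unadjusted p under 0.05 had a median Cy5 difference of -0.23 and a median Cy3 difference of 0.09, and Cy5 was below the median of all clusters in 75.4% of them, while Cy3 was below it in 39.2%. The 529 higher clusters had a median Cy5 difference of 0.10 and a median Cy3 difference of -0.35, and Cy3 was below the median of all clusters in 81.3%, while Cy5 was below it in 39.5%. The Cy3 difference was the larger one in 63.3% of the higher clusters, in 41.8% of the lower clusters and in 47.3% of all clusters.

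Among the named clusters, Cy5 did not overlap between diets in 8 of the 12 lower clusters and in 2 of the 12 higher ones. Those 2 ran in opposite directions, with Cy5 higher in ERD at chr15:99256217-99256582 and lower in ERD at chrX:98727773-98728485. At the latter, Cy5 had a mean of -0.28 in ERD and 0.60 in STD, and Cy3 of -0.81 and 0.70, so both channels were lower in ERD and the input the more so. The Cy3 difference was the larger one in 8 of the 12 higher clusters and in 3 of the 12 lower ones, chr1:78193226-78193924, chr17:25409858-25410821 and chr16:96348653-96349871. Cy3 did not overlap in 10 of the 12 higher clusters and in 1 of the 12 lower ones, that of chr1:78193226-78193924. For both channels the share of all clusters without overlap is not given here. Selection by the p of the ratio can favour such gaps in its channels. Each channel moved more than the ratio did. The median absolute difference between diets was 0.277 in Cy5 and 0.269 in Cy3 before the median of all clusters was taken off, against 0.133 in the ratio, and both channels moved together over clusters (r = 0.851, a description over 9783 clusters that share arrays and probes). The input DNA saw no antibody, and its part in the difference of the ratios was not tested.

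**Figure D3:**
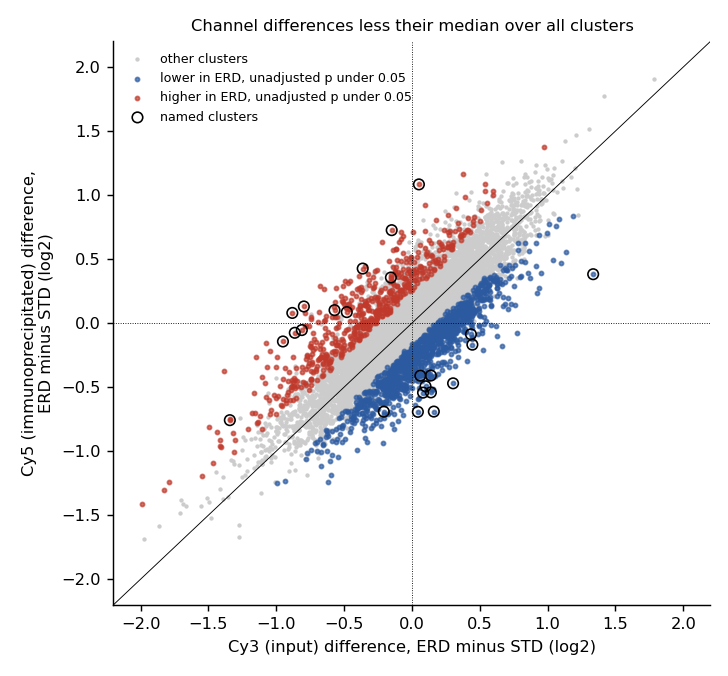
Difference between ERD and STD in the Cy5 signal (y axis, log2) against that in the Cy3 input signal (x axis, log2) for 9783 clusters, each less its median over all clusters; the diagonal marks equal differences. Clusters lower in ERD at an unadjusted p under 0.05 (blue) lie under the diagonal with a median Cy5 difference of -0.23, those higher in ERD (red) lie over it with a median Cy3 difference of -0.35, and circles mark the 24 named clusters.

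ERD arrays had a wider spread of log2 ratios than STD arrays, although neither channel alone had the higher mean spread in ERD. The interquartile range of the ratio over kept probes was 0.70, 0.65, 0.71 and 0.59 on the ERD arrays and 0.52, 0.48 and 0.33 on the STD arrays. All ERD arrays lay above all STD arrays, with a mean difference of 0.22 (two-sided exact permutation p = 0.0286, adjusted 0.0857 over 3 such measures), and 0.0286 is the smallest p that 4 against 3 arrays allow. The interquartile range of Cy3 ran the other way, at 1.39, 1.27, 1.42 and 1.41 in ERD and 1.53, 1.51 and 1.78 in STD, with all ERD arrays below all STD arrays. That of Cy5 overlapped, at 1.65, 1.63, 1.73 and 1.65 against 1.74, 1.72 and 1.87. The share of probes above background in both channels was 84.1% to 94.7% in ERD and 76.4% to 89.2% in STD, with its lowest value in STD replicate 3. With normexp, which starts from raw intensities and so changes the background step and leaves out the scanner's dye normalization together, the spread of the ratio differed by -0.34.

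**Figure D4:**
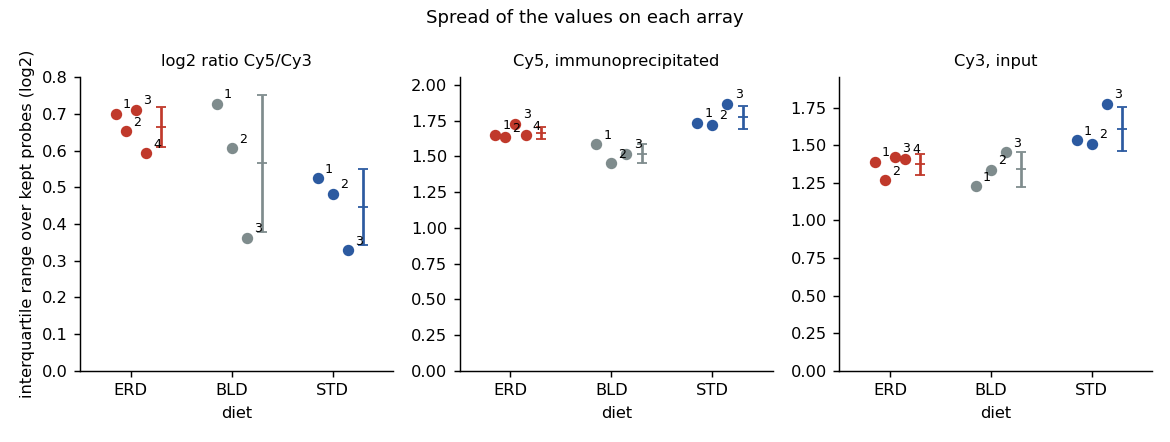
Interquartile range over kept probes (y axis, log2) of the ratio, of the Cy5 signal and of the Cy3 input signal, by diet (x axis). Points are arrays numbered by replicate and bars are the mean and SD; for the ratio the ERD arrays (0.59 to 0.71) lie above the STD arrays (0.33 to 0.52), and for Cy3 they lie below them (1.27 to 1.42 against 1.51 to 1.78); with normexp background correction the difference in the ratio is -0.34.

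The direction of the differences followed the level of a cluster in BLD, the diet that was in neither group. In the 10% of clusters lowest in BLD, 11 were higher in ERD and 316 were lower (32.3%) at an unadjusted p under 0.05. In the highest 10%, 210 were higher (21.5%) and 3 were lower (0.306%), and in the seventh class from below both directions held 39 of 979 clusters. The median log2 ratio of the lowest class was -0.29, -0.36, -0.43 and -0.43 on the ERD arrays and -0.16, -0.27 and -0.15 on the STD arrays. The diets did not overlap there, and their means differed by -0.19 (two-sided exact permutation p = 0.0571, adjusted 0.0857). In the highest class the medians were 0.36, 0.99, 0.34 and 0.60 in ERD and 0.22, 0.48 and 0.14 in STD. Here the diets overlapped, with STD replicate 2 above ERD replicates 1 and 3, and the difference was 0.29 (two-sided exact permutation p = 0.2, adjusted 0.2), or 0.15 without ERD replicate 2. Median Cy5 differences ran from -0.21 in the lowest class to 0.17 in the highest, while those of Cy3 ran from -0.10 to -0.18, all before the median of all clusters was taken off. With every array brought to the same spread, the lowest class differed by -0.07 (two-sided exact permutation p = 0.314) and the highest by 0.13 (p = 0.429); quantile normalization gave -0.12 and 0.12. With normexp the lowest class differed by 0.48, that is, in the other direction, and the highest by 0.19.

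**Figure D5:**
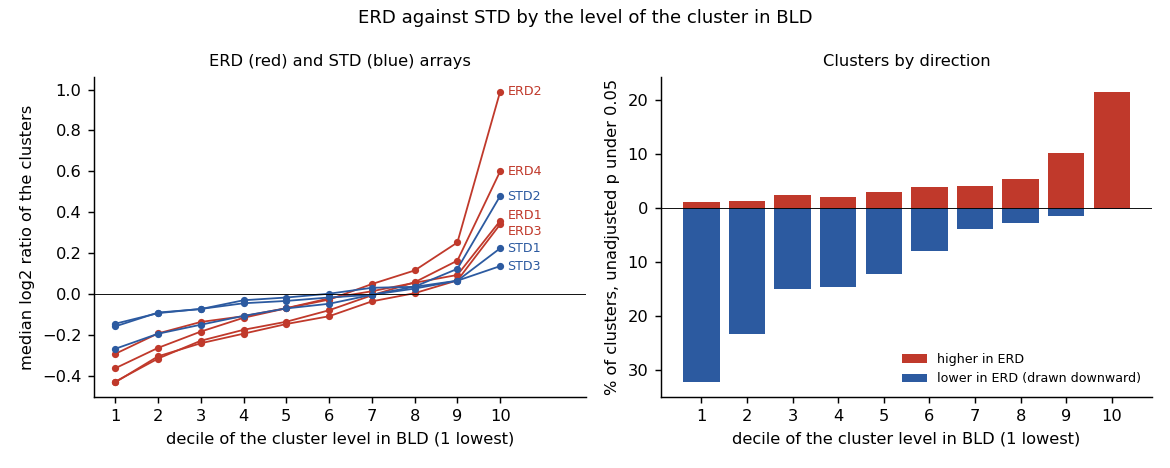
Left, median log2 ratio (y axis) of clusters in 10 classes of their level in BLD (x axis) for each ERD (red) and STD (blue) array; right, percent of clusters of each class at an unadjusted p under 0.05, higher in ERD upward and lower in ERD downward. The share of lower clusters falls from 32.3% in the lowest class to 0.306% in the highest, where 21.5% are higher; with every array brought to the same spread the lowest class differed by -0.07, and with normexp by 0.48.

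On the X chromosome more clusters were higher than lower in ERD. Of its 250 clusters, 31 (12.4%) were higher in ERD and 11 (4.4%) lower at an unadjusted p under 0.05, against 5.41% and 11.4% of all clusters, and the median difference was 0.07 against -0.03. On each of the 19 autosomes more clusters were lower than higher. Chromosomes 7 and 15 had the highest autosomal shares of higher clusters, 7.72% and 7.4%, and chromosome 16 had the highest share of lower ones, 15.9%. The median of the X clusters minus that of the autosomes was 0.20, 0.23, 0.18 and 0.14 on the ERD arrays and 0.12, 0.10 and 0.01 on the STD arrays, with no overlap. All mice were male. In the input channel the X clusters minus the autosomes stood at -0.22, -0.29, -0.29 and -0.25 in ERD and -0.08, -0.04 and 0.11 in STD. In Cy5 they stood at -0.07, -0.06, -0.09 and -0.10 against 0.06, 0.05 and 0.12. Neither channel overlapped between ERD and STD. The BLD arrays were below all STD arrays in the input channel, at -0.41, -0.26 and -0.11, and overlapped with STD in the ratio, at 0.13, 0.12 and 0.04. The difference of the X chromosome from the autosomes was not tested. Within classes of BLD level the median difference of X clusters exceeded that of the other clusters in each class but the highest, where it was 0.17 against 0.25, with 8 to 49 X clusters a class.

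The balance of directions varied with the number of kept probes, with the probes lost and with probe length, none of which was tested. Clusters of 3 kept probes were higher in 7.96% and lower in 11.7%, and the 270 clusters of over 10 kept probes were higher in 2.96% and lower in 8.15%. Where no probe was lost to the background filter, 9.29% were higher and 8.46% lower, and where over 25% of the probes were lost, 3.96% were higher and 13.7% lower. Where every probe was 45 nucleotides long, 4.44% of clusters were higher and 13.3% lower, and with a mean probe length over 46 and up to 50 nucleotides 7.91% were higher and 7.73% lower. The background filter itself changed the balance. On unfiltered values, the 9783 clusters that passed it were higher in 5.4% and lower in 8.48%, while the 4043 that did not pass were higher in 11.5% and lower in 7.22%.

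The filter also removed most of the clusters that led without it. Of the 10 clusters with the lowest p in the fit without the filter, where the lowest limma adjusted p was 0.164, 4 kept at least 3 probes, and all of these 4 are among the 12 named lower clusters. The other 6 kept 1 or 2 probes. Among them, chr2:174122729-174123051 had a difference of 1.11 with 1 of 3 probes kept, and chr2:109120716-109121366 had -0.69 with 1 of 6. At chr1:78193226-78193924 the difference was -0.66 over all 6 probes and -0.99 over the 3 kept ones, whereas at chr14:122933384-122933868 it was -0.72 in both.

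Pairs of ERD arrays correlated more than pairs of STD arrays did, although clusters varied more within ERD. The median SD of a cluster was 0.159 over the 4 ERD arrays and 0.122 over the 3 STD arrays. The correlations were not corrected for the wider spread of log2 ratios on ERD arrays. Over clusters, which are not independent, pairs of ERD arrays correlated at a mean r of 0.705 (0.638 to 0.814, 6 pairs) and pairs of STD arrays at 0.514 (0.366 to 0.648, 3 pairs). Pairs of 1 ERD and 1 STD array had a mean r of 0.523 over 12 pairs, with a range of 0.26 to 0.788. STD replicate 2 correlated more with ERD replicates 2 and 4, at 0.788 and 0.749, than with either other STD array, at 0.527 and 0.648. STD replicate 1 correlated at 0.623 with ERD replicate 1 and at 0.366 with STD replicate 3. These values describe arrays that share probes and dye orientation, and no test was made of them.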

How the data were processed

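Left hemibrain DNA of the 10 samples was measured on 2-colour Agilent CpG island arrays. The authors deposited scanner files with background-subtracted, dye-normalized processed intensity of both channels, extracted with Agilent Feature Extraction 10.7.3.1 per the file headers and 9.0 per the submitters' processing notes. The deposited log10 ratio, in those files and in the series value table, is Cy5 over Cy3. From the deposited intensity the log2 ratio was computed here, outlier-flagged spots were set to missing, and each array was centred on its median. Other deposited columns, such as flags and positions, are codes. Cluster values average the spots that remain, so the arrays of a cluster can rest on different probes. In the 24 named clusters 48 of 672 kept spots were missing.

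The 7 arrays were fitted in limma 3.58.1 (R 4.3.3) without covariates, with Benjamini-Hochberg adjustment at 0.05. The fit was tested on simulated data with independent noise for each cluster and array. The simulation had no slide effect and no array-wide difference in spread, so it cannot show how the fit behaves under these. Named are the 12 clusters of lowest p per direction whose direction held in all 7 fits without 1 array. Per-array measures used exact permutation tests. Members, lists and tests were chosen with earlier results of these data known. Gene lists were not used, because no probe is paired with a gene here and positions were not converted between builds.

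Alternatives were other probe filters (none, input channel alone, all 10 arrays), saturated spots left out, scaling, quantile, loess, normexp (offset 50), the series value table, other cluster definitions, the median of probes, all 10 arrays in the fit, slide or array position as terms, array weights and each array left out. Centring on kept probes and 2 other treatments of outlier flags were added after seeing the data. The number of arrays limits the precision.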

Additional observations from a re-analysis of the deposited data

How the results depend on the processing

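No paired analysis was possible because the sample titles give ERD and STD no shared replicate numbers. Of 0 clusters past the adjusted threshold, limma gave 1 lower with at least 5 kept probes, 1 higher with the median of the probes, 35 with array weights and 1 with probes free of flagged spots (chr19:6983823-6985082, a difference of -0.77 that lay outside the named clusters and is given after its value was seen). It gave 0 without any 1 array. Clusters at an unadjusted p under 0.05 made up 4.4% with normexp and 8.34% to 17.8% without 1 array, lowest without STD replicate 3. They made up 13.2% to 23.1% under the other alternatives. Without the background filter their split was 993 higher to 1122 lower, and without ERD replicate 3 it was 621 to 788. The difference in spread was -0.0037 after scaling to one spread and -0.011 after quantile normalization, which equalise the spread by construction, and -0.34 with normexp. Without 1 array it was 0.16 to 0.26, where the smaller designs cannot reach an exact p under 0.0667. In the 10% of clusters lowest in BLD the exact permutation p was 0.0286 in place of 0.0571 without the filter (-0.17), with the filter on the input alone (-0.21) or on all 10 arrays (-0.22), with the series value table (-0.20), with starts at most 250 bp apart (-0.19), with the median of probes (-0.21), centred on kept probes (-0.17), with feature flags alone (-0.19) and without flagged probes (-0.22). The difference was -0.07 (exact p = 0.314) with all arrays scaled to one spread, -0.12 with quantile normalization, 0.48 with normexp and -0.23 to -0.17 without 1 array. The 10% highest kept its direction in every alternative, at 0.12 to 0.40, with 0.13 (exact p = 0.429) after scaling and 0.12 after quantile normalization, and at 0.15 to 0.39 without 1 array. Of 637 values of named clusters under 28 alternatives, 607 kept their direction and their side of the threshold and 21 crossed it, 19 of them with array weights. The 9 that reversed did so with normexp: 0.22 for chr8:119467527-119468010, 0.0029 for chr14:122933384-122933868, 0.10 for chr17:25409858-25410821, 0.067 for chr3:106838714-106840111, 0.068 for chr16:56029231-56030316, 0.26 for chr16:96348653-96349871, 0.057 for chr2:25145715-25146244, 0.11 for chr9:119353943-119354282 and 0.27 for chr8:75876434-75877872. The cause was not tested.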

Other observations

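The BLD arrays did not lie together in the named clusters. BLD replicate 3, which shares a slide with STD replicate 1, was the BLD array nearest to the STD mean in 11 of the 12 lower and 11 of the 12 higher clusters. Its log2 ratios had an interquartile range of 0.36, against 0.73 and 0.61 for BLD replicates 1 and 2 and 0.52 for STD replicate 1. STD replicate 3 was the highest STD array in 11 of the 12 lower clusters, on the side away from ERD. In the 12 higher clusters it was the STD array farthest from ERD in 5. The shares over all clusters are not given for these counts of BLD replicate 3 and STD replicate 3. Their cause was not tested.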
